A study of Mus musculus with 2 samples.

Results

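Long intergenic noncoding RNA (lincRNA) genes lie between protein-coding genes and start at promoters of their own. Their promoters were examined by single-cell ATAC-seq, an assay in which a transposase cuts accessible DNA and the cuts are counted nucleus by nucleus. Overlapping peaks of the 2 libraries on chromosomes 1 to 19 were merged, and a region was kept when it held a peak of both libraries, lay within 1 kb of a TSS of a lincRNA gene of GENCODE M21 (mm10) and lay more than 1 kb from every protein-coding TSS. This left 2242 regions among 170665 shared regions (1.31%), and they belonged to 1931 of the 5209 annotated lincRNA genes (37.1%). A TSS lay inside the region in 1224 cases, 71 regions served more than 1 lincRNA gene, and 132 regions also had a TSS of another kind of noncoding gene within 1 kb. A further 416 regions at a lincRNA TSS were left out because a protein-coding TSS was too close. Another 447 qualifying regions had a peak in the DOX library only and 436 in the EtOH library only, and these have no deposited count in the other library.

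Mammary gland organoids of C57BL/6J mice that carried shTRPS1.34 ki/+ and CAG-rtTA3 tg/+ were cultured for 7 days with 0.1 µg/ml doxycycline (DOX) or with ethanol, its solvent (EtOH). Both groups carried both alleles. Doxycycline switches on an shRNA against Trps1, which encodes a GATA-type repressor, and by the study's account the ubiquitous CAG promoter of rtTA3 did not give induction in all cells. A legend of the study names wild-type mice for this assay, whereas the labels and the main text name the shRNA line. Each group was 1 library from the mixed cells of several mice, so shRNA induction, doxycycline exposure and library cannot be told apart. There is no replicate check, every interval below is a 95% interval for counting error only, and a 2-fold difference is a rule of size and not a test.

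lincRNA genes are transcribed by RNA polymerase II and many are spliced and polyadenylated like messenger RNAs, but most are expressed at lower levels and in fewer cell types. Well-known examples include Malat1 and Neat1, which stay in the nucleus, and host genes such as Snhg6 and Mir142hg, whose transcripts are processed into small nucleolar RNAs or microRNAs. Some lincRNA promoters resemble those of housekeeping genes, with many CpG dinucleotides, and others share features with enhancers. Open chromatin at a promoter shows that the site is accessible and does not measure the RNA.

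The central 200 bases of 10 regions are printed to show both kinds of promoter and the regions with the greatest differences, 5′ to 3′ on the strand of the lincRNA, from GRCm38.p6 (mm10). Capitals mark a match, on either strand, to one of 12 short motifs. Of motifs for lineage factors, AGATAA was searched for the GATA factors, TGTTTAC for the FOX factors, TGTGGTT for the RUNX factors, GAGGAAGT for the myeloid factor PU.1, GGAATG for the TEAD factors and TGANTCA for the AP-1 factors. Of motifs common at broadly active promoters, CCGGAAG was searched for the ETS factors, GGGCGG for the SP and KLF factors, GCGCATGC for the factor NRF1, TGACGTCA for the CREB factors, AAGATGG for the factor YY1 and TATAAA for the TATA box. The ETS, PU.1 and TEAD motifs share their GGAA letters. The first 3 had among the highest ratios of DOX over EtOH in epithelial nuclei (chr15:67226741-67226940, chr10:70740185-70740384 and chr10:24446220-24446419), and Gm34069 (chr9:14263078-14263277) had the lowest.
1700012I11Rik: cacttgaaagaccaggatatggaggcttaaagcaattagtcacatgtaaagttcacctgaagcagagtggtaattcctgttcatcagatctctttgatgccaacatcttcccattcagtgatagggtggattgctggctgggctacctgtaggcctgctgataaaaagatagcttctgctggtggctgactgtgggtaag
Gm33979: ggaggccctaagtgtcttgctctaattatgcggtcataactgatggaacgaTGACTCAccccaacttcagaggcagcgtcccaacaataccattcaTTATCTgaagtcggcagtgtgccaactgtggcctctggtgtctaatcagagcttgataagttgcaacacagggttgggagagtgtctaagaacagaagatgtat
Gm15271: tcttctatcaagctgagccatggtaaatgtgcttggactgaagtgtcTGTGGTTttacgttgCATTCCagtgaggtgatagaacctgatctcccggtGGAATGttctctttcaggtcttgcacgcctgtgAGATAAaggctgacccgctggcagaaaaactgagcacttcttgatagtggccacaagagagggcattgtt
Gm34069: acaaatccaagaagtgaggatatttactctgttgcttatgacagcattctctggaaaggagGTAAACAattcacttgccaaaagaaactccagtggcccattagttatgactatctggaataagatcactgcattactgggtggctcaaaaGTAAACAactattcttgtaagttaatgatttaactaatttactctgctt
The next 3 were open mainly in immune nuclei (chr10:51455910-51456109, chr3:100436800-100436999 and chr11:87755369-87755568), the 2 after them mainly in epithelial nuclei (chr13:101605090-101605289 and chr2:103388890-103389089), and Snhg6 (chr1:9944023-9944222) is a CpG-rich host gene promoter that was open in both.
Gm46189: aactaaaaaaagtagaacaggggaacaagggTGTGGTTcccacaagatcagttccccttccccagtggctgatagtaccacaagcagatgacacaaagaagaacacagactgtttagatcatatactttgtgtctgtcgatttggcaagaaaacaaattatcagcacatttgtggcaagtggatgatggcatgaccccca
Gm43121: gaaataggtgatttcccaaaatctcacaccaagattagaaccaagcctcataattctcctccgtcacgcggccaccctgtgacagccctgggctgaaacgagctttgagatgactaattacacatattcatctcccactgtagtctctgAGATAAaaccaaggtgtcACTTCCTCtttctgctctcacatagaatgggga
Mir142hg: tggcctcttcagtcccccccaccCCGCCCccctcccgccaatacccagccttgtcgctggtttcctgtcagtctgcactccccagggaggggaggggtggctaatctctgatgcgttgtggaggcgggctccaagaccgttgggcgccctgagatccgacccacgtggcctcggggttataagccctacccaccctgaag
Gm29341: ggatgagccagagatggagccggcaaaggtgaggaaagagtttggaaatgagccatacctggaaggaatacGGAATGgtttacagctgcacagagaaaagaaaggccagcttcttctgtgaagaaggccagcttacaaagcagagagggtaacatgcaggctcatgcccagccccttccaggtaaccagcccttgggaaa
BC016548: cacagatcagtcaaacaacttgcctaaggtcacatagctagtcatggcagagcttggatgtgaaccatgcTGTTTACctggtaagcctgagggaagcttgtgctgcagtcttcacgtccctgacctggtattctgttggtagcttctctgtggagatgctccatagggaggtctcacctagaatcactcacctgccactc
Snhg6: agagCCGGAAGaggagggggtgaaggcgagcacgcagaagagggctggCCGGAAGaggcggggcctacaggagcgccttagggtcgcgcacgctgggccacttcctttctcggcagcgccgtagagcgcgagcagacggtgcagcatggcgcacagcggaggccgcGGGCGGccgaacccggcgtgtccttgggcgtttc

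The libraries held 3071 (DOX) and 3104 (EtOH) nuclei with a median of 75296 and 66790 counts per nucleus, and 23 barcodes occurred in both. Clustering without the lincRNA promoter regions gave 7 clusters, which were named from marker genes. Epithelial nuclei made up 1744 of the DOX and 2800 of the EtOH nuclei, and immune nuclei 1284 and 283. Another 43 and 21 nuclei of low depth in cluster 7 were left unnamed. The epithelial nuclei of the 2 libraries fell into different clusters. Cluster 1, luminal progenitor-like, held 58 DOX and 1643 EtOH nuclei, clusters 4 and 5, hormone-sensing luminal-like, held 105 and 6 DOX and 503 and 505 EtOH nuclei, and cluster 6, basal-like, held 94 and 130. In cluster 1 the median log2 ratio over all other nuclei was 0.51 for luminal progenitor markers, of which 5 of 8 were raised. It was close to this for pan-epithelial markers (0.47) and was 0.26 for basal markers, of which 6 of 8 were raised. The median log2 ratio of cluster 6 over all other nuclei was 0.74 for basal markers. It was also raised for fibroblast markers (0.56) and was -0.26 for pan-epithelial markers. Cluster 3, epithelial without a leading lineage, held 1481 DOX and 19 EtOH nuclei. Summed accessibility of the 10 immune marker genes in the epithelial nuclei was 124 CPM (counts scaled to 1000000 per class) in DOX and 123 in EtOH, against 918 and 927 in the immune nuclei. The shRNA target cannot be checked by this assay, since the files hold no RNA. The Trps1 promoter regions gave 29.1 CPM in DOX and 23.0 in EtOH in epithelial nuclei, a log2 ratio of 0.34 (0.25 to 0.43).

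Most lincRNA promoters kept a similar accessibility in epithelial nuclei, and a small share differed by 2-fold or more. Counts were summed over the nuclei of a class and scaled to the class total in shared regions. Of the 2242 regions, 2169 had at least 100 counts over both libraries, and their median log2 ratio of DOX over EtOH was -0.04, with quartiles of -0.38 and 0.25. A ratio of 2 or more in favour of DOX was found in 104 regions (4.795%), against 5.35% of all 163671 shared regions with enough counts. A ratio of 2 or more in favour of EtOH was found in 129 regions (5.95%), against 8.65% of all shared regions. Neither share lay above that of all shared regions. Protein-coding promoters, for comparison, were 2-fold higher in 1.64% and 2-fold lower in 3.38% of 24817 regions. Distal regions were so in 6.04% and 9.65% of 136685, and the lincRNA promoters lay between the 2 kinds. Median counts per region followed the same order, with 3090 for protein-coding promoters, 1143 for lincRNA promoters and 716 for distal regions. The part of counting error in these shares was not tested. The counting interval of the ratio included 0 in 961 of the 2169 regions.

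**Figure D1:**
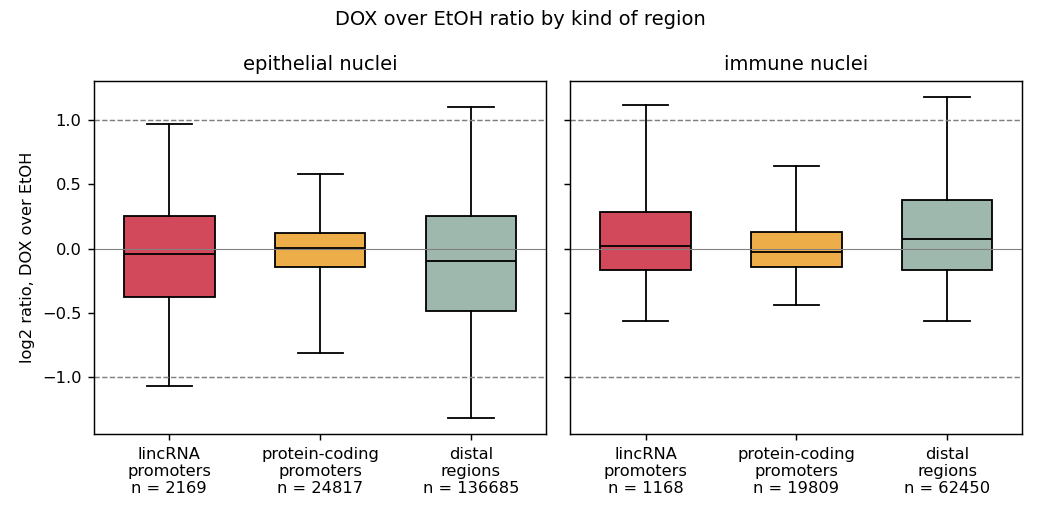
Log2 ratio of DOX over EtOH (y axis) in epithelial (left) and immune nuclei (right) for lincRNA promoters, protein-coding promoters and distal regions. Boxes span the quartiles with the median as a line, whiskers run from the 5th to the 95th percentile and dashed lines mark a 2-fold ratio. In epithelial nuclei the lincRNA promoters (quartiles -0.38 and 0.25) spread more widely than protein-coding promoters (-0.14 and 0.12) and less widely than distal regions (-0.49 and 0.26). Kinds with a wider spread also had lower median counts, and the part of counting error was not tested.

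The counts were lower with equal cluster numbers, an alternative that changes both the mixture and the number of nuclei. When 257 nuclei were drawn from each library, in equal numbers from clusters 1, 4 and 6, 25 of 1340 lincRNA promoters with enough counts were 2-fold higher and 20 were 2-fold lower, against 1.86% and 2% of all regions. With a minimum mean level of 3 CPM in place of a minimum count, an alternative added once the data had been seen, 47 of 1203 were higher and 47 lower, against 5.13% and 5.38% of all regions. A further property of the data is that each library's counts cover only its own peaks, so a merged region whose 2 peaks hardly overlap compares different windows. A median of 94.0% of the length of a lincRNA promoter region lay under peaks of both libraries, and in 287 regions this overlap was under 80%. Among the 1896 regions with enough counts and an overlap of at least 80%, 80 were higher and 90 were lower (4.22% and 4.75%, against 5.15% and 7.05% of all regions with such an overlap). Among the 273 others, 24 and 39 were (8.79% and 14.3%, against 6.72% and 19.2%).

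Nearly all 2-fold differences were at CpG-poor lincRNA promoters. A region was called CpG-rich when its central 300 bases had a GC content of at least 50% and an observed over expected CpG ratio of at least 0.6. This held for 219 lincRNA promoters (9.77%), against 46.8% of protein-coding promoters and 1.62% of distal regions. Of the 217 CpG-rich lincRNA promoters with enough counts, 1 was at least 2-fold higher and 0 were lower, and their quartiles were -0.07 and 0.16. Of the 1952 CpG-poor ones, 103 were higher and 129 lower, with quartiles of -0.42 and 0.26. CpG-poor protein-coding promoters were higher in 2.97% and lower in 6.38%, and CpG-rich ones in 0.169% and 0.0761%. CpG-rich regions were also more open: the median level per kb of region in EtOH epithelial nuclei was 14.7 CPM per kb for CpG-rich and 3.43 CPM per kb for CpG-poor lincRNA promoters. Deeper regions have narrower counting error, and the part of this in the fewer calls was not tested.

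**Figure D2:**
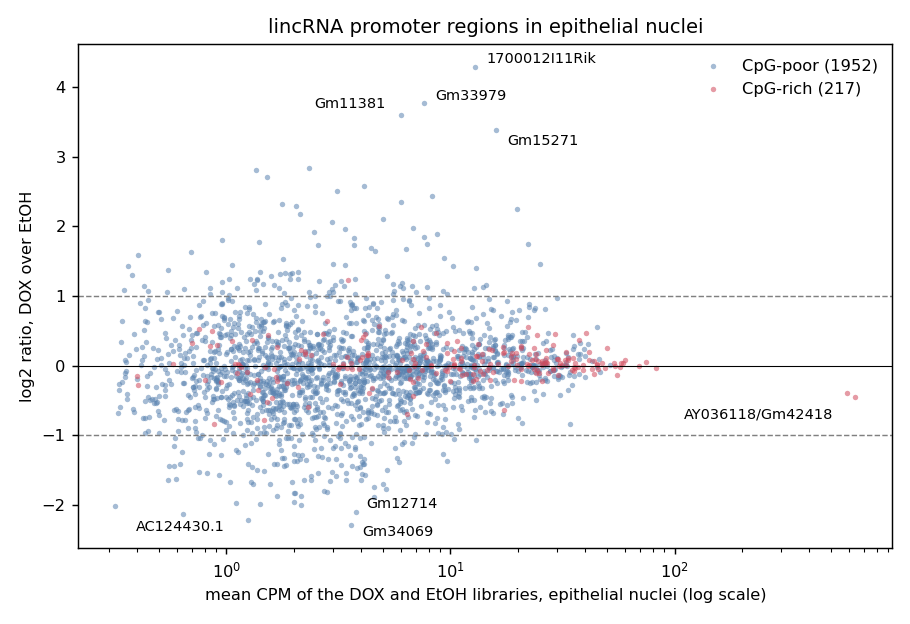
Log2 ratio of DOX over EtOH in epithelial nuclei (y axis) against the mean CPM of both libraries on a log scale (x axis) for 2169 lincRNA promoter regions, each 1 point, with dashed lines at a 2-fold ratio. The 217 CpG-rich regions gather near 0 while CpG-poor regions fan out, with 1700012I11Rik at 4.29 and Gm34069 at -2.29.

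The highest ratios in epithelial nuclei were at lincRNA genes known by a clone or model number only. The promoter of 1700012I11Rik (ENSMUSG00000102069.1, chr15:67226373-67227309, mm10) holds the TSS and an exon of this gene and lies 49.5 kb from the TSS of St3gal1, a sialyltransferase gene. It had 3108 counts in DOX and 230 in EtOH epithelial nuclei, which is 24.6 and 1.25 CPM and a log2 ratio of 4.29 (4.02 to 4.58). This was the highest ratio among the lincRNA promoters. DOX was higher within each cluster that both libraries filled, with log2 ratios of 5.04 (4.12 to 5.96) in cluster 1, 2.40 (1.78 to 3.03) in cluster 4 and 2.91 (2.16 to 3.75) in cluster 6. In cluster 1 the level was 13.7 CPM in DOX and 0.416 in EtOH, and in cluster 3 of DOX it was 25.8 CPM.

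The region of Gm33979 (chr10:70739822-70740748) lies 978 bp from the TSS of this gene and 83.9 kb from Phyhipl. Its 1805 DOX and 192 EtOH counts were 14.3 and 1.05 CPM, and the log2 ratio was 3.77 (3.46 to 4.09). In EtOH it was most open in the basal-like cluster, at 8.57 CPM, and stayed under 1 CPM in clusters 1, 4 and 5. DOX was higher in cluster 4 (log2 ratio 3.01, 2.07 to 4.02) and in cluster 6 (1.51, 0.96 to 2.07), and in cluster 1 it had 0 counts in DOX and 39 in EtOH, so the higher DOX level was not seen in all 3 clusters.

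Gm15271 (chr10:24445839-24446802) lies 149 kb from Ccn2, a matricellular growth factor gene and a well-known target of YAP and TEAD factors. Its counts were 3703 and 514, 29.3 and 2.80 CPM, and its log2 ratio was 3.38 (3.20 to 3.58). The printed window holds 2 TEAD motif matches, a match to GATA and a match to RUNX. Within cluster 4 the log2 ratio was 2.10 (1.56 to 2.64) and within cluster 6 it was 1.66 (1.09 to 2.25), while the 10 DOX counts of cluster 1 left a wide interval (0.91, -0.75 to 2.20).

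Gm11381 (chr13:32383026-32383988, 44.3 kb from Gmds) had 11.1 CPM in DOX and 0.916 in EtOH, a log2 ratio of 3.60 (3.28 to 3.95), with peaks that overlap over 62.5% of the region. It was higher in DOX within clusters 1, 4 and 6 as well, by 1.84 (0.03 to 3.25), 3.78 (2.19 to 5.70) and 1.202 (0.44 to 1.998) on the log2 scale. With equal numbers of nuclei from clusters 1, 4 and 6 the ratios of these 4 promoters stayed above 2-fold, at 3.48 for 1700012I11Rik, 1.67 for both Gm33979 and Gm15271 and 1.56 for Gm11381.

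The other 2 of the 6 highest ratios belonged to promoters that were more open in immune than in epithelial nuclei. The region of Gm32089 and Gm48102 (8.74 kb from Scamp1) had 4.12 CPM in DOX and 0.572 in EtOH epithelial nuclei, a log2 ratio of 2.85 (2.41 to 3.30), and it was also higher in DOX immune nuclei (15.03 against 6.12 CPM, log2 ratio 1.30, 0.85 to 1.78). Gm28100 (24.5 kb from Gpr55, a G protein-coupled receptor gene) had 2.37 CPM in DOX and 0.338 in EtOH epithelial nuclei, a log2 ratio of 2.81 (2.24 to 3.42), while immune nuclei gave 12.4 and 12.9 CPM. Both regions were at 4.38 and 2.56 CPM in cluster 3 of DOX.

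The 6 promoters with the lowest ratios all had their highest EtOH level in the hormone-sensing cluster 4, among clusters 1, 2, 4, 5 and 6. With at least 200 EtOH counts over these clusters, cluster 4 was highest in 363 of 1949 lincRNA promoters and in 31010 of 139555 shared regions. Gm34069 (chr9:14262729-14263627) lies 11.4 kb from Sesn3, a stress-response gene of the sestrin family. It had 155 counts in DOX and 1099 in EtOH, 1.22 and 5.99 CPM, and a log2 ratio of -2.29 (-2.65 to -1.95). In EtOH its level was 14.3 CPM in cluster 4 and 14.03 in cluster 5 but 0.793 in cluster 1 and 0.202 in cluster 6. Within cluster 4 the log2 ratio was -0.33 (-0.81 to 0.12), and with equal numbers of nuclei it was -0.03. Its printed window holds 2 FOX motif matches.

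AC124430.1 had 0.442 CPM (DOX) and 2.05 CPM (EtOH). The log2 ratio was -2.21 (-2.84 to -1.63), and within cluster 4 it was -0.60 (-1.46 to 0.17). Gm12714 (49.2 kb from Med9) had 1.43 and 6.14 CPM, a log2 ratio of -2.10 (-2.44 to -1.78) over all epithelial nuclei and -1.05 (-1.67 to -0.49) within cluster 4, so here a lower level was measured in the same cluster as well. Gm32369 (142 kb from Frmd6) had 0.861 and 3.44 CPM and a log2 ratio of -1.998 (-2.44 to -1.58), with 0.16 (-0.52 to 0.79) within cluster 4. Clusters 4 and 5 together made up a larger part of the EtOH than of the DOX epithelial nuclei (503 and 505 of 2800, against 105 and 6 of 1744), and the part of this in the lower ratios was measured only by the within-cluster values above. The remaining 2 of the 6 lowest ratios, Gm31898 (-2.14) and Gm12532 (-1.99), belonged to regions whose peaks overlap over 3.94% and 41.7% of the length. Their EtOH levels differed less between clusters, with 1.87 CPM in cluster 4 and 0.744 in cluster 1 for Gm31898 and 2.68 and 2.17 for Gm12532. In cluster 6 Gm12532 had 2.42 CPM from 24 EtOH counts, so its lead in cluster 4 was small.

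**Figure D3:**
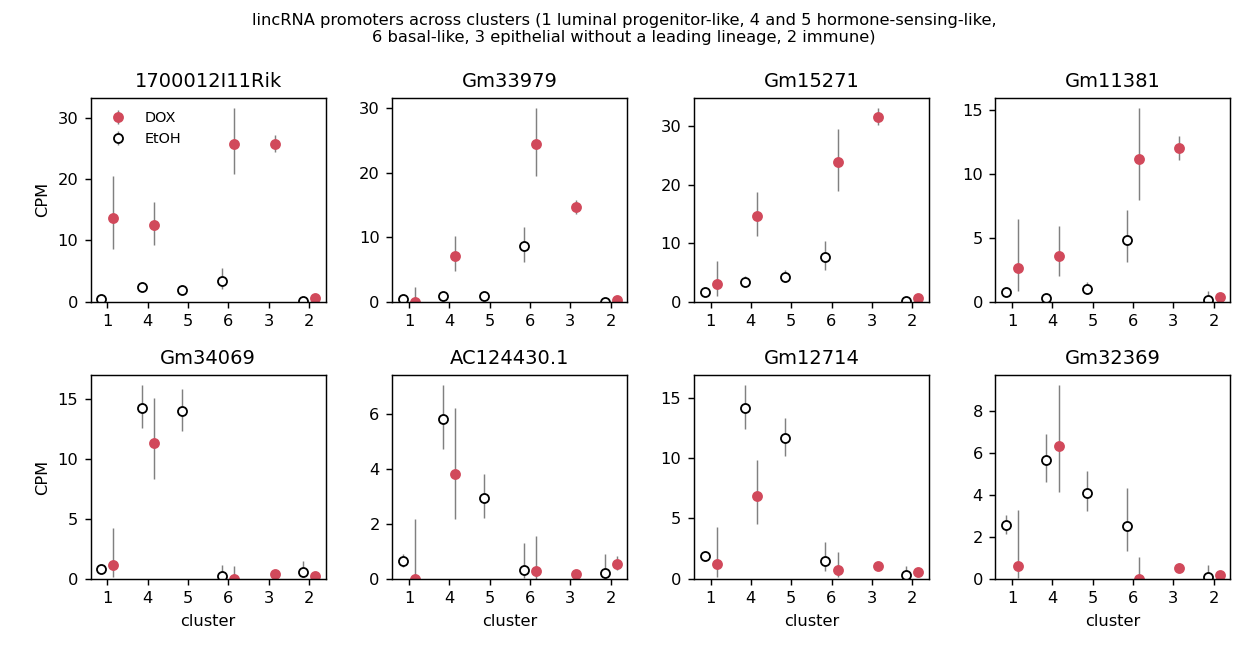
CPM (y axis) of the 4 lincRNA promoters with the highest (top row) and 4 of the 6 with the lowest (bottom row) ratios in each cluster (x axis), with filled circles for DOX, open circles for EtOH and bars for 95% Poisson intervals. Clusters with fewer than 50 nuclei of a library are left out for that library. The top row is higher in DOX in cluster 6 (25.8 against 3.43 CPM for 1700012I11Rik), and the bottom row has its highest levels in clusters 4 and 5.

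In the clusters that both libraries filled, 2-fold ratios were counted again. In cluster 4, 26 of 1240 lincRNA promoters with enough counts were higher (2.10%, against 1.82% of all regions) and 22 lower (1.77%, against 3.98%). In cluster 6, 18 of 842 were higher (2.14%, against 2.91%) and 27 lower (3.21%, against 3.64%). Cluster 1, with 58 DOX nuclei, gave 56 higher and 225 lower of 1723 (3.25% and 13.1%, against 4.28% and 15.2%), and its DOX counts are few. The largest epithelial cluster of each library, 3 of DOX and 1 of EtOH, differed more widely, with 237 of 2049 lincRNA promoters at least 2-fold higher (11.6%) and 143 lower (6.98%), against 13.4% and 7.90% of all regions.

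Among the 12 motifs, regions with a FOX match had the lowest median ratio and those with RUNX or GATA the highest. FOX factors open chromatin in hormone-sensing luminal cells, and TRPS1 itself recognises GATA sites. In sorted luminal cells, however, the study found motifs of C2H2 zinc fingers, another part of TRPS1, enriched in regions bound by TRPS1. It proposes that regulation there rests more on these fingers than on the GATA domain. Whether any of these factors accounts for the medians below was not tested. The median log2 ratio in epithelial nuclei was -0.28 for 127 lincRNA promoters with a FOX match and -0.03 for 2042 without, and over all shared regions -0.32 and -0.05. With a GATA match it was 0.06 (249 promoters) and -0.05 without (1920), and over all shared regions 0.05 and -0.07. With RUNX it was 0.08 (234) and -0.05 without, and over all shared regions 0.01 and -0.07. The order was thus the one seen over all regions for FOX and GATA. A match in 300 bases is a description and not a bound site, and these letters occur in many regions: FOX in 5.80%, GATA in 11.6% and RUNX in 10.8% of lincRNA promoters, and in 5.39%, 13.2% and 11.2% of all shared regions. SP and KLF letters stood in 15.2% of lincRNA, 44.9% of protein-coding and 12.5% of all shared regions, and the TATA letters in 11.3%, 6.87% and 13.0%.

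The shares of 2-fold ratios were somewhat higher beyond 50 kb from protein-coding genes than nearer to them. lincRNA promoters 1 to 5 kb from the nearest protein-coding TSS were 2-fold higher in 6 of 162 regions (3.70%) and lower in 6 (3.70%). The shares were 3.66% and 5.18% of 984 at 5 to 50 kb, 5.63% and 7.17% of 781 at 50 to 200 kb, and 7.44% and 6.61% of 242 beyond 200 kb. Shares of all shared regions were not counted by distance, so the rise cannot be called particular to lincRNA promoters. Without regard to distance they were 5.35% and 8.65% of all shared regions and 6.04% and 9.65% of distal regions. The share of CpG-rich promoters fell with distance, from 18.1% to 12.1%, 6.83% and 4.00%. Across regions, which are not independent, the DOX over EtOH ratio of a lincRNA promoter was hardly related to that of the promoter of its nearest protein-coding gene, with Spearman coefficients of 0.09, 0.05, 0.08 and 0.07 in these bins. For the ratio of immune over epithelial accessibility the coefficients were 0.31, 0.25, 0.25 and 0.27. The compared values share the libraries and their depth. At the 1 kb limit of the choice, 92 regions within the last 100 bp inside it had a median log2 ratio of 0.01, and 85 regions within 100 bp outside it had -0.12.

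None of the well-known lincRNA genes with enough counts reached a 2-fold ratio over all epithelial nuclei. Of 44 listed names, 20 were annotated as lincRNA genes. The members were 23 regions of 19 lincRNA genes, among them Gm44238 and Gm26700, which were not listed but share regions with Lockd and Rmst. Of these regions, 22 had enough counts, and 0 were 2-fold higher and 0 lower, against 5.35% and 8.65% of all regions. Their median log2 ratio was 0.02, with a range of -0.66 to 0.62. Of the 23 regions, 10 were CpG-rich, and among all CpG-rich lincRNA promoters only 0.461% were 2-fold higher and 0% lower. Malat1, an abundant RNA of nuclear speckles, has its CpG-rich region at chr19:5803178-5804091, with 39.0 CPM in DOX and 38.8 in EtOH (log2 ratio 0.01, -0.07 to 0.08). Neat1, the scaffold of paraspeckles, had 54.6 and 53.3 CPM (0.03, -0.03 to 0.10) in the region with its TSS. 2900097C17Rik, known as Norad and involved in genome stability, had a log2 ratio of 0.13, but 0.80 with equal numbers of nuclei and 0.76 (0.07 to 1.38), 0.55 (-0.01 to 1.08) and 0.65 (-0.03 to 1.34) within clusters 1, 4 and 6. Lockd, beside the cell cycle inhibitor gene Cdkn1b, had a log2 ratio of -0.04, and Mir17hg, the host of an oncogenic microRNA cluster, of 0.06. Miat had -0.16 (-0.54 to 0.21) over all epithelial nuclei, while the ratios within clusters lay on opposite sides, with 2.36 (1.04 to 3.72) in cluster 4 from 25 DOX and 20 EtOH counts and -1.23 (-2.27 to -0.29) in cluster 6 from 25 and 82 counts.

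A few well-known regions had intervals that left out 0 without reaching 2-fold. Trp53cor1, a target of p53 beside Cdkn1a, had a log2 ratio of 0.30, and H19, an imprinted lincRNA, of 0.45. The second region of Pvt1, 229 kb from Myc, had -0.66 (-0.97 to -0.36), whereas its CpG-rich region 50.1 kb from Myc had -0.01. With equal numbers of nuclei from clusters 1, 4 and 6, the second Pvt1 region had a log2 ratio of 0.67 and Trp53cor1 of -0.03. Of Carmn, a lincRNA of smooth muscle and myoepithelial cells on chromosome 18, the 2 regions had 0.44 and 0.09.

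Host genes of small nucleolar RNAs and microRNAs gave 12 regions with enough counts of 13, with 0 higher and 0 lower, against 5.35% and 8.65% of all regions, and an interval that included 0 in all 12. Of the 13 regions, 6 were CpG-rich, the kind at which 2-fold ratios were rare. Snhg6 had 26.7 CPM in DOX and 25.9 in EtOH (log2 ratio 0.04, -0.05 to 0.13). Its window has a GC content of 70.5%, with 2 ETS matches and an SP and KLF match, and in immune nuclei it had 32.0 and 32.8 CPM.

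The highest levels were at ribosomal RNA related sequence on chromosome 17. The region shared by AY036118 and Gm42418 (chr17:39847853-39848606) had 544 CPM in DOX and 740 in EtOH epithelial nuclei, and Gm26917 (chr17:39842880-39843799) 507 and 669. RefSeq lists a ribosomal RNA related sequence at Gm42418, and reads of the many repeat copies can be placed there, so these values are uncertain as lincRNA promoters. The next 3 by level were Gm6410 (81.9 and 83.9 CPM), D730045B01Rik (log2 ratio 0.05) and 1700096K18Rik (0.00), all CpG-rich.

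In immune nuclei most lincRNA promoters had similar levels in the 2 libraries. With at least 100 counts over both, 1168 regions had a median log2 ratio of 0.02, and the counting interval included 0 in 960 of them. At least 2-fold higher in DOX were 68 (5.82%, against 5.74% of all 83427 regions) and at least 2-fold lower 13 (1.11%, against 0.734%). The balance turned when nuclei were put into classes by a marker score of each nucleus, which gave 37 higher and 184 lower of 1337, against 4.01% and 10.9% of all regions. The DOX library supplied most of the immune counts, since it had 1284 immune nuclei against 283, so a minimum on the summed count admits more regions that are high in DOX. With a minimum mean of 3 CPM, which weights the libraries equally, 13 of 835 were higher and 3 lower, against 1.79% and 0.193% of all regions. Among 138 regions with a peak overlap under 80%, 22 were higher and 1 lower (15.9% and 0.725%, against 18.4% and 0.791% of all regions with such an overlap). Of 1099 regions with enough counts in both classes, 964 stayed under 2-fold in both, 7 were higher in both and 1 was lower in both. Such crossed calls were not counted over all shared regions, so they cannot be read as particular to lincRNA promoters.

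The 4 highest immune ratios were all at regions with low overlap of the libraries' peaks: Gm31898 (3.71, overlap 3.94%), Gm20442 (3.47, 14.2%), Gm32633 (2.54, 49.6%) and one region of 4732419C18Rik and Gm45866 (2.53, 53.1%). Among regions with an overlap of at least 80%, a limit set once the data had been seen, the highest ratio was at Gm29040 (105.5 kb from Fhl2). Its 266 DOX and 11 EtOH counts were 3.25 and 0.782 CPM, a log2 ratio of 2.05 (0.85 to 3.61). The lowest immune ratio was at Gm44744 (3.19 kb from Psmc4, a proteasome gene), with 2.89 CPM in DOX and 9.75 in EtOH (log2 ratio -1.75, -2.19 to -1.30), and epithelial nuclei gave 6.14 and 12.1 CPM (-0.98). Gm15889 (8.16 kb from Herpud1) had 1.86 and 4.98 CPM (-1.42), Gm13391 5.19 and 10.5 CPM (-1.01) and Gm35611 6.42 and 12.5 CPM (-0.96).

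Between the classes of nuclei, lincRNA promoters differed by 2-fold as often as shared regions in general did. With at least 100 counts in each library, 326 of 2179 were at least 2-fold higher in immune nuclei in both libraries (14.96%, against 15.3% of all regions) and 1084 were at least 2-fold higher in epithelial nuclei in both (49.7%, against 49.5%). Scaled to the median ratio of all regions, the counts were 704 and 790, so the balance between the classes depends on the scaling. Shares of all shared regions were not counted at this scaling. Peaks were called on whole libraries, of whose nuclei 56.8% (DOX) and 90.2% (EtOH) were epithelial. The part of this in the balance was not tested. Protein-coding promoters were higher in immune nuclei in 10.8% and in epithelial nuclei in 27.5% of 25012. In 4 of the 2179 lincRNA promoters the 2 libraries gave 2-fold ratios in opposite directions, against 652 of 163345 shared regions. Of the CpG-rich lincRNA promoters, 8.26% were higher in immune and 20.2% in epithelial nuclei, and of the CpG-poor ones 15.7% and 53.0%.

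**Figure D4:**
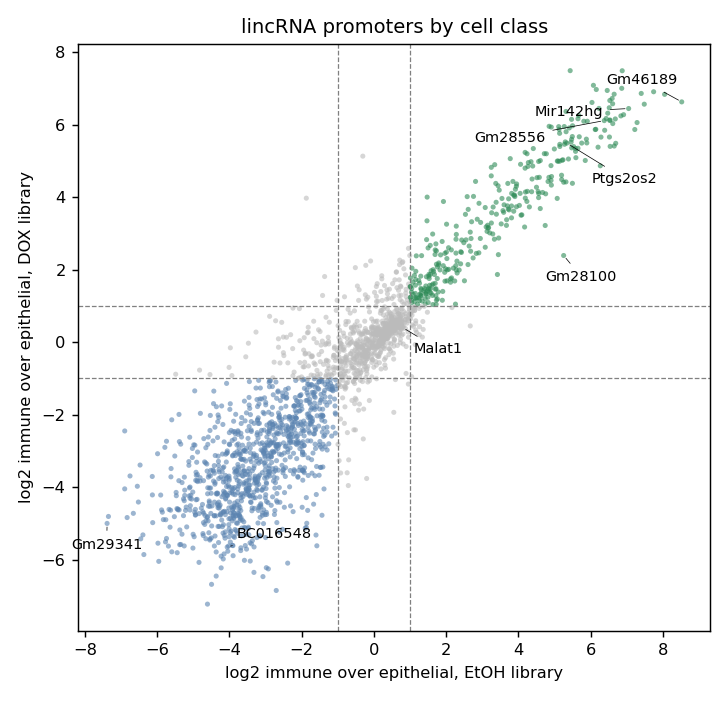
Log2 ratio of immune over epithelial CPM in the EtOH (x axis) and DOX library (y axis) for 2049 lincRNA promoter regions, each 1 point, with dashed lines at 2-fold. A further 130 regions with a count of 0 in a class are not drawn. Green regions are at least 2-fold higher in immune nuclei in both libraries (326 in all) and blue ones at least 2-fold higher in epithelial nuclei (1084 in all, with those not drawn).

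The most immune-specific lincRNA promoters were far more open in immune than in epithelial nuclei of both libraries. Gm46189 (chr10:51455571-51456449) had 22.7 CPM in DOX and 18 CPM in EtOH immune nuclei and 0.229 and 0.0491 in epithelial nuclei, log2 ratios of immune over epithelial of 6.63 (5.89 to 7.49) and 8.52 (7.20 to 10.28). Gm43121 (51.8 kb from Tent5c) had 37.0 and 40.3 CPM in immune nuclei, with ratios of 6.84 and 8.05. Mir142hg hosts a microRNA that is specific to blood cells. Its region with the TSS (chr11:87755044-87755894) had 46.8 and 46.2 CPM in immune nuclei and 0.537 and 0.349 in epithelial nuclei, ratios of 6.45 (5.96 to 6.98) and 7.05 (6.52 to 7.62). Gm28556, 16 kb from Ptprc, which encodes the leukocyte antigen CD45, had ratios of 6.11 and 6.38. Ptgs2os2, near the prostaglandin synthase gene Ptgs2, had 5.49 and 5.34. PU.1, a factor that sets up myeloid enhancers, had a match in 18.4% of the immune-higher lincRNA promoters, 2.58% of the epithelial-higher and 3.90% of the others, and over all shared regions in 14.5% and 2.42% of the first 2 kinds. The printed window of Gm43121 holds such a match.

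On the epithelial side, Gm29341 (86.6 kb from Pik3r1) had the lowest immune over epithelial ratio by the mean of both libraries, with 24 immune counts against 1185 epithelial in DOX and 1 against 2181 in EtOH, log2 ratios of -5.00 (-5.96 to -4.18) and -7.39 (-17.38 to -4.16). In EtOH it was at 17.2 CPM in cluster 1 and 18.1 in cluster 6 but 1.89 in cluster 4. AC137585.3, 38.2 kb from Atp8b1, was most open in cluster 4 instead (26.8 CPM in EtOH and 26.8 in DOX). The TEAD letters stood in 23.4% of the epithelial-higher and 12.6% of the immune-higher lincRNA promoters, and over all shared regions in 25.02% and 14.5%.

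lincRNA promoters whose nearest protein-coding gene is a luminal or basal gene of a chosen list numbered 28, and 19 of 26 with enough counts were at least 2-fold higher in epithelial nuclei in both libraries and 4 in immune nuclei, against 49.5% and 15.3% of all regions. BC016548, near Elf5, which drives alveolar differentiation, had 47.8 CPM in DOX and 44.6 in EtOH in its most open region (log2 ratio 0.10, 0.03 to 0.17). That region lies 972 bp from the TSS and had immune over epithelial ratios of -4.55 and -3.87. The BC016548 region with the TSS, whose window is printed, had 7.97 CPM in DOX and 9.50 in EtOH (log2 ratio -0.25, -0.41 to -0.09). Between the libraries, 2 of 26 of these promoters were 2-fold higher and 0 lower, against 5.35% and 8.65% of all regions. These were a region of Gm49498, 442 kb from Myc (1.17 and 0.458 CPM, log2 ratio 1.35), and Gm36346, 23.0 kb from Id4, a gene of basal cells (5.28 and 2.22 CPM, 1.25, 0.99 to 1.51). Tbx3os2, near Tbx3, had -0.44 and Gm13219, in the neighbourhood of Gata3 at 521 kb, had -0.35. Neighbours of the immune list numbered 6, of which 4 were at least 2-fold higher in immune nuclei in both libraries and 1 in epithelial nuclei, against 15.3% and 49.5% of all regions, and of the 5 with enough epithelial counts 0 differed by 2-fold between the libraries. These regions belonged to only 4 lincRNA genes: Gm26979 and Gm28556, both nearest to Ptprc, Ptgs2os2 at Ptgs2 and Gm16225 at Runx3.

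Across the EtOH clusters, the shares of lincRNA promoters with a highest cluster were close to those of all shared regions. Of 1949 regions with at least 200 EtOH counts over clusters 1, 2, 4, 5 and 6, the level was at least 2-fold above that of every other of these clusters in 197 regions for the immune cluster 2 (10.1%, against 10.2% of all shared regions), 141 for the basal-like cluster 6 (7.23%, against 6.19%), 124 for cluster 1 (6.36%, against 6.96%), 46 for cluster 4 (2.36%, against 2.93%) and 0 for cluster 5, which resembles cluster 4.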

How the data were processed

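Single-cell ATAC-seq libraries of DOX and EtOH organoids, 1 each, were grouped from the sample labels. For each library the authors deposited counts, raw whole numbers of transposase cut sites for every barcode in every peak, not normalized, with the peaks and the barcodes. Per the file headers these counts come from Cell Ranger ATAC 2.0.0, with peaks called in each library alone, and the submitters' processing notes name mm10. Total counts were 224762118 (DOX) and 211963715 (EtOH), of which 93.1% and 93.3% lay in shared regions.

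Peaks on chromosomes 1 to 19 that overlapped were merged. Distances ran from the region to the TSS of every annotated transcript. Nuclei were clustered on shared regions without those near lincRNA TSSs, by TF-IDF and singular value decomposition (components 2 to 30), a graph of 15 neighbours and Leiden at a resolution of 0.5 (seed 1, leidenalg 0.10.2, igraph 0.11.9, scikit-learn 1.9.0). A cluster was called immune when the median of the immune markers lay above and that of the pan-epithelial markers below the level of all nuclei, epithelial in the reverse case or by basal markers, and left unnamed when its nuclei were far shallower than their library (a median relative depth under 1/3) and no marker led it. All deposited nuclei were kept and no doublet caller was run.

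Counts were summed per class and library and scaled to the class total in shared regions. Odd values made up 13.8% and 14.3% of the nonzero values, as when a fragment adds a cut at each end to the same peak, and exact conditional binomial intervals (95%) used the counts divided by 2. Ratios of at least 2-fold with at least 100 counts were called. The calculation was tested on simulated data. With 1 library per group there was no test and no p-value. Named were, among regions with at least 200 counts in the class, the 6 highest and 6 lowest epithelial, the 4 highest and 4 lowest immune and the 4 highest and 4 lowest immune over epithelial ratios, the 5 highest epithelial levels, and members of lists of well-known lincRNAs, host genes and neighbours of lineage genes, of which the text gives examples. A count of 0 entered that ranking as 3 counts. Members, lists and rules were chosen with earlier results of these data known. Python 3.11.15, numpy 2.4.6, scipy 1.17.1, pandas 2.3.3 and matplotlib 3.10.9 were used.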

Additional observations from a re-analysis of the deposited data

Results flagged for a closer look

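Between epithelial and immune nuclei the DOX over EtOH ratio pointed in opposite directions at 8 lincRNA promoters, which were at least 2-fold lower in epithelial and at least 2-fold higher in immune nuclei, out of 1099 with enough counts in both classes. With 1 library per group the difference between the classes was not tested. In 5 of the 8 the peaks of the libraries overlapped over less than 80% of the region (Gm13074, Gm45155, Gm31898, Gm19951 and Gm20442). The other 3 were AC124518.1 (epithelial log2 ratio -1.65, -2.05 to -1.26, and immune 1.54, 0.26 to 3.20), Gm44386 (-1.04 and 1.17) and Gm33447 (-1.06 and 1.12), and the immune intervals of the last 2 included 0, with 9 EtOH counts in each. No region had the reverse pattern, 0 being at least 2-fold higher in epithelial and lower in immune nuclei. The share of all shared regions with either pattern was not counted, so neither count can be read as particular to lincRNA promoters. Of all shared regions, 8.65% were 2-fold lower and 5.35% higher in epithelial nuclei. In immune nuclei 5.74% were higher and 0.734% lower.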

How the results depend on the processing

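No paired analysis was possible because DOX and EtOH are single libraries. Of the recomputed summary values, 95 stayed within 1.5 times the main count or, for medians, within the counting error, and 21 did not. Of the recomputed ratios at named regions, 362 stayed inside the counting interval of the main ratio and 65 moved outside it. With equal numbers of nuclei per cluster 29 moved and 14 stayed. With each nucleus thinned to 10000 counts 15 moved and 39 stayed. No main ratio of 2-fold or more at a named region turned its direction. With equal numbers of nuclei per cluster, 25 epithelial regions were higher and 20 lower, which changes both the mixture and the number of nuclei. Thinning each nucleus to 10000 counts left 61 higher and 85 lower in epithelial nuclei, 17 and 2 in immune nuclei, and 92 immune-higher and 400 epithelial-higher regions, since fewer regions reached the minimum (151 DOX and 131 EtOH nuclei were too shallow). A minimum of 50 counts gave 131 higher and 49 lower immune calls, and one of 200 gave 34 and 3. A minimum mean of 3 CPM, chosen after seeing the data, gave 47 and 47 in epithelial and 13 and 3 in immune nuclei. Counting each nonzero value as 1 gave 27 and 2 immune calls. All of these settings change how many regions qualify, so such counts are not shares. They cannot be set directly beside the main 68 and 13 immune calls. Classes from a per-nucleus marker score gave 37 higher and 184 lower immune calls, and the cause was not tested. Scaling to the median ratio of all regions moved the immune-higher count to 704. In the main scaling, the median log2 ratio of immune over epithelial over all shared regions was -1.19 in DOX and -1.45 in EtOH. The same change of scaling turned the epithelial median of the DOX over EtOH ratio from -0.04 to 0.02 and the immune one from 0.02 to -0.02. Depth limits the immune ratios through the 283 EtOH immune nuclei, and 1074 lincRNA promoters had too few immune counts to be called.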
